A study of Mus musculus with 8 samples.

Results

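The genes described here encode proteins that bring fatty acids into a cell and carry them inside it. They are 9 genes of the 54091 in the deposited table, taken by gene symbol: Cd36, Lpl, Fabp3, Fabp4, Gpihbp1, Angptl4, Vldlr, Dbi and Got2. All 9 were among the 13638 genes with enough reads to be tested, which here means at least 10 normalized reads in at least 4 libraries. The RNA came from white quadriceps of male mice aged 11 to 14 weeks on a Purina chow diet. The Cre group had 4 mice with a muscle knockout of Acot2 made with a CKM Cre, a recombinase driven by the promoter of muscle creatine kinase, so that other cell types in the muscle keep the gene. The Loxp group had 4 mice of genotype Loxp/Loxp, for which no Cre is named. Acot2 encodes a mitochondrial enzyme that splits acyl-CoA into free fatty acid and coenzyme A.

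Fatty acids reach muscle on lipoproteins or bound to albumin. Lipoprotein lipase frees them from triglyceride at the capillary wall, where GPIHBP1 holds the enzyme and ANGPTL4 inhibits it. CD36 and other membrane proteins take them into the cell, and small binding proteins then carry fatty acids or acyl-CoA through the cytosol. Several of these genes are also used by fat cells. A piece of muscle can hold some fat cells, and for that reason each gene is set beside Adipoq, which encodes adiponectin, a hormone secreted by fat cells. A bulk library cannot tell fewer cells of a type apart from less RNA per cell.

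The reads recovered from the table summed to 30415427 to 48834283 per library. Acot2 had 43.8, 42.8, 53.7 and 48.9 normalized reads in Cre replicates 1 to 4, against 213, 149, 251 and 240 in Loxp replicates 1 to 4. The groups did not overlap for Acot2, in the direction of the labels. Myh4, which encodes the myosin of the fastest glycolytic fibres, was high in every library, at 2521590 to 3400930 normalized reads. The libraries also differed in Adipoq and in fibre-type genes. Adipoq had 169, 46.5, 118 and 119 normalized reads in Cre libraries, against 224, 1738, 688 and 64.9 in Loxp libraries, so that Loxp 2 and Loxp 3 stood above the other 6, Loxp 1 was above every Cre library and Loxp 4 was within the Cre range. Its log2 difference, Cre minus Loxp, was -1.82 (SE 0.81, 95% interval -3.60 to -0.04, unadjusted p = 0.0457 and adjusted p = 0.9995 by limma, exact permutation p = 0.171). Myh2, which encodes the myosin of oxidative fast fibres, had 4409, 6512, 50678 and 51585 normalized reads in Cre libraries, against 7832, 797, 73690 and 50366 in Loxp libraries. Cre 3, Cre 4, Loxp 3 and Loxp 4 were thus high in Myh2, and Loxp 2 was lowest. Myh7, the slow-fibre myosin gene, was at 2133 and 7430 normalized reads in Cre 3 and Cre 4, against 7.83 to 40.1 in the other 6 libraries.

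Promoter sequences from RefSeq on GRCm38.p6 (mouse) were found for 5 of the 9 genes, and 3 of them are shown because Fabp3 and Got2 passed a test of their slope on Myh2 below, and Cd36 passed once Adipoq was also in the model. Each runs 5′ to 3′ from 250 bases before to 50 after a start of transcription. The Cd36 window lies inside the span of the gene (17781690 to 17888801, minus strand) and not at its 5′ end. Capitals mark 4 short motifs, searched on both strands: the TATA box TATAAA, the nuclear receptor half-site AGGTCA, the NF-Y box CCAAT and the GC box GGGCGG.
Fabp3, chr4:130308488-130308787, plus strand: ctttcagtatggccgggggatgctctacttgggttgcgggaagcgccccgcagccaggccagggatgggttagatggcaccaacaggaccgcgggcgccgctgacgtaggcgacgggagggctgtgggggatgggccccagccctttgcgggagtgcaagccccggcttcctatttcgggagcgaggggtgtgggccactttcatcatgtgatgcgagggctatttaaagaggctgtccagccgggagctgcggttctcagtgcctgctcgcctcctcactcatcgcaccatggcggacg
Cd36, chr5:17835847-17836146, minus strand: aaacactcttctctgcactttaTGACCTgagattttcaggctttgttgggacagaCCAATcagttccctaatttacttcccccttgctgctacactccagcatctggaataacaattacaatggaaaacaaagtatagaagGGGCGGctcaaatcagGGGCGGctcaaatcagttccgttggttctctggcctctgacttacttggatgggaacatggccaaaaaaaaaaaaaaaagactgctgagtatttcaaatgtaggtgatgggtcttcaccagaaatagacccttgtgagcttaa
Got2, chr8:95888352-95888651, minus strand: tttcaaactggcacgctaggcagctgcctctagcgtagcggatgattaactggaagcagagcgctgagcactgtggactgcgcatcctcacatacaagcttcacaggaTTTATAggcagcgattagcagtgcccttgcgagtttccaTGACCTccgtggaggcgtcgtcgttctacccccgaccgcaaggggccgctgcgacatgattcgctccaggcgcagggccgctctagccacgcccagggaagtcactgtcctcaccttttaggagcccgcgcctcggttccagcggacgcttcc
The Cd36 window held 1 nuclear receptor half-site (on the opposite strand, TGACCT), 1 NF-Y box and 2 GC boxes. The Got2 window held 1 TATA box and 1 half-site, both read on the opposite strand. The Fabp3 window held none of the 4. Of 32851 promoter windows of this length, 13.6% held TATAAA, 16.3% AGGTCA, 37.4% CCAAT and 35.7% GGGCGG, so that these motifs are common. The estrogen-related receptor element TCAAGGTCA, which contains AGGTCA, was found in 0.423% of all windows and in none of these 3. Lpl, Fabp4, Gpihbp1 and Angptl4 are named only.

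Levels of different genes were compared as normalized reads per kilobase of the longest protein-coding transcript. Fabp3 had the highest mean over the 8 libraries, at 4787 per kilobase, and was followed by Fabp4 at 3132, Got2 at 2911, Lpl at 2858, Dbi at 2612, Vldlr at 2269 and Cd36 at 2102. Ranges over the libraries overlapped between every pair of neighbours in this order, for example 1995 to 6892 per kilobase for Fabp4 and 2049 to 3617 for Got2. Gpihbp1 came far below these at 171 per kilobase (124 to 203), and Angptl4 was lowest at 20.9 (5.17 to 78.2). Those ranges did not overlap with each other or with the genes above. The order of Fabp4 rests on the transcript chosen, since with its longest annotated model, a single exon of 4231 bases not annotated as protein-coding, its mean would be 663 per kilobase. For Dbi the longest annotated model gave 2252 per kilobase, and for the other 7 genes it was the protein-coding one.

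None of the 9 genes passed the test between the groups. The fit by limma across 13638 genes called 2 genes at an adjusted p under 0.05, or 0.0147%, Acot2 and Kbtbd12, and 0 of the 9. At an unadjusted p under 0.05 it called 0 of the 9 and 2.91% of all genes, and limma-voom on the recovered reads also called 0 of the 9. The groups overlapped for all 9, while they did not overlap for 1.92% of all genes. The log2 difference, Cre minus Loxp, was below 0 for 7 of the 9, with a median of -0.07, and below 0 for 48.3% of all tested genes, with a median of 0.0049. The adjusted p was 0.9995 for each of the 9 (limma, Benjamini-Hochberg). The smallest p that an exact permutation test can give with 4 against 4 libraries is 0.0286.

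**Figure D1:**
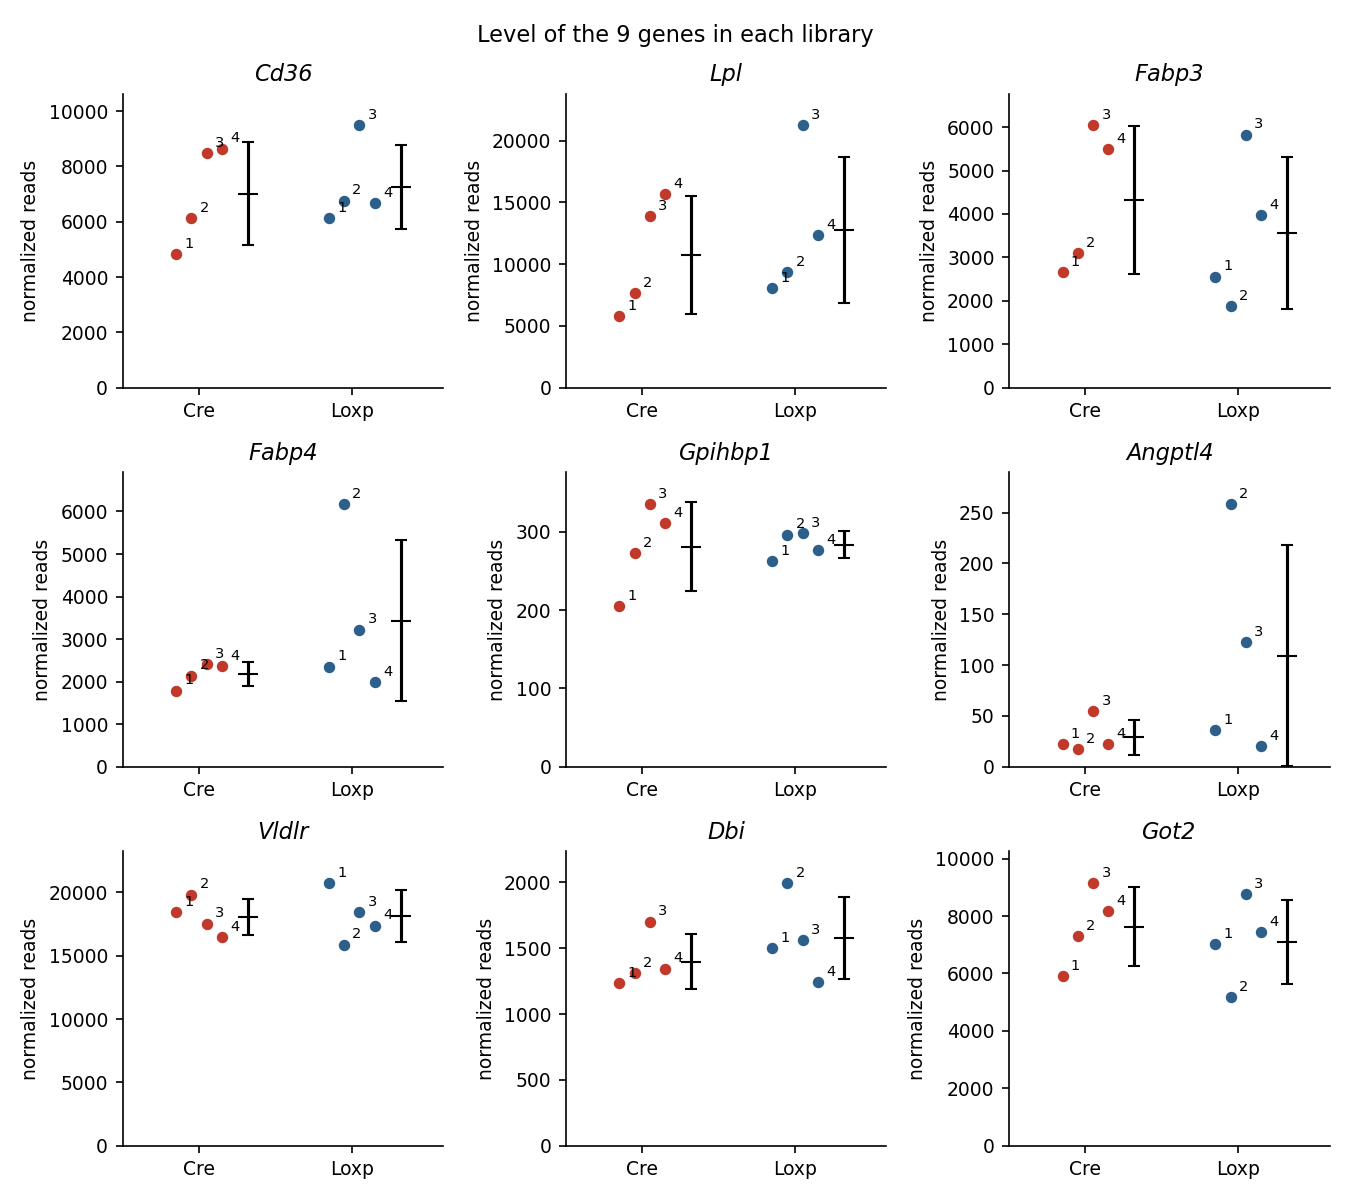
Normalized reads (y axis, linear, from 0) of the 9 genes in each library, with Cre left of Loxp, replicate numbers beside the points, and a bar for the mean ± SD of 4 libraries. The groups overlap in every panel, and Loxp 2 has the highest Fabp4, Angptl4 and Dbi, while Loxp 3 has the highest Cd36 and Lpl.

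The enzyme and its partners at the capillary wall are given first. Lpl, which encodes lipoprotein lipase (chromosome 8: 68880491 to 68907448, plus strand, GRCm38), had 5767, 7678, 13864 and 15680 normalized reads in Cre libraries, against 8079, 9388, 21274 and 12357 in Loxp libraries. The 4 libraries high in Myh2 were the 4 highest in Lpl, and the groups overlapped. The mean was 10747 ± 4770 in Cre libraries and 12775 ± 5942 in Loxp libraries (SD, n = 4 each), and the log2 difference was -0.26 (SE 0.34, 95% interval -1.01 to 0.49, exact two-sided permutation p = 0.629).

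Gpihbp1, which encodes the protein that holds lipoprotein lipase on capillary endothelium (chromosome 15: 75596628 to 75599481, plus strand), had 205, 273, 336 and 312 normalized reads in Cre libraries, against 262, 297, 299 and 277 in Loxp libraries. The Cre libraries spread around the Loxp ones, with Cre 1 lowest and Cre 3 highest of all 8. The log2 difference was -0.03 (SE 0.14, 95% interval -0.35 to 0.28, exact permutation p = 0.886). Lpl stood at 28.1, 28.2, 41.3 and 50.3 reads per read of Gpihbp1 in Cre libraries, against 30.8, 31.7, 71.2 and 44.6 in Loxp libraries. This ratio was also higher in the 4 libraries high in Myh2.

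Angptl4, which encodes a secreted inhibitor of lipoprotein lipase (chromosome 17: 33773750 to 33781830, minus strand), was the scarcest of the 9. It had 21.9, 17.1, 54.8 and 22.0 normalized reads in Cre libraries, against 36.2, 259, 122 and 20.6 in Loxp libraries. Loxp 2 and Loxp 3, the libraries highest in Adipoq, were also highest in Angptl4, and Loxp 4 lay within the Cre range. The lowest library, Cre 2, had 14 recovered reads (95% Poisson interval 7.65 to 23.5), and the highest, Loxp 2, had 231 (202 to 263). These intervals cover counting error only. The log2 difference was -1.40 (SE 0.68, 95% interval -2.89 to 0.09, exact permutation p = 0.229), the largest in size among the 9. Without Loxp 2 and Loxp 3 it was -0.07.

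Vldlr encodes a lipoprotein receptor that binds triglyceride-rich particles (chromosome 19: 27216484 to 27254231, plus strand). It had 18445, 19813, 17530 and 16444 normalized reads in Cre libraries, against 20737, 15871, 18467 and 17371 in Loxp libraries. It was the steadiest of the 9, with the highest library 1.31 times the lowest. The log2 difference was -0.0008 (SE 0.089, 95% interval -0.20 to 0.19, exact permutation p = 0.971), and 0.01 with scaling to total reads.

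Cd36, which encodes the membrane glycoprotein that takes up long-chain fatty acids (chromosome 5: 17781690 to 17888801, minus strand), had 4823, 6141, 8473 and 8643 normalized reads in Cre libraries, against 6123, 6768, 9498 and 6679 in Loxp libraries. Loxp 3, Cre 4 and Cre 3 were highest. Cd36 averaged 7020 ± 1857 normalized reads in Cre libraries and 7267 ± 1514 in Loxp libraries (SD, n = 4 each), with a log2 difference of -0.07 (SE 0.19, 95% interval -0.48 to 0.34, exact permutation p = 0.771).

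Got2 encodes mitochondrial aspartate aminotransferase of the malate-aspartate shuttle, which has also been described at the cell surface as a fatty acid binding protein (chromosome 8: 95864134 to 95888547, minus strand). It had 5904, 7292, 9151 and 8170 normalized reads in Cre libraries, against 7020, 5184, 8753 and 7445 in Loxp libraries. Loxp 2, lowest in Myh2, was lowest in Got2. The log2 difference was 0.11 (SE 0.16, 95% interval -0.24 to 0.46, exact permutation p = 0.6). Of the 50-base stretches of its transcript, 47.2% also occur in other annotated genes, chiefly the copies Gm10874 and Got2-ps1, and Got2-ps1 was given 17.7 to 39.0 normalized reads, so that its level is uncertain to the extent that such reads were left out or split.

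Among the binding proteins, Fabp3 encodes the form of heart and skeletal muscle (chromosome 4: 130308595 to 130315463, plus strand). It had 2653, 3094, 6047 and 5493 normalized reads in Cre libraries, against 2559, 1873, 5828 and 3968 in Loxp libraries. The 4 libraries high in Myh2 were the 4 highest in Fabp3, and Loxp 2 was lowest in both. Fabp3 averaged 4322 ± 1697 normalized reads in Cre libraries and 3557 ± 1747 in Loxp libraries (SD, n = 4 each), with a log2 difference of 0.32 (SE 0.34, 95% interval -0.43 to 1.08, exact permutation p = 0.486). It was 0.06 without Loxp 2 and 0.61 without Loxp 3. Its transcript shares 37.3% of its 50-base stretches with other genes, mostly Fabp3-ps1, which was given 9.74 to 44.5 normalized reads.

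Fabp4, the binding protein of fat cells that capillary endothelium also makes (chromosome 3: 10204088 to 10208576, minus strand), had 1787, 2143, 2413 and 2371 normalized reads in Cre libraries, against 2350, 6176, 3222 and 1985 in Loxp libraries. Loxp 2 and Loxp 3 were above all others, and the other 6 lay within 1787 to 2413. The log2 difference was -0.52 (SE 0.28, 95% interval -1.13 to 0.09, exact permutation p = 0.257), and 0.0025 without Loxp 2 and Loxp 3.

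Dbi encodes the acyl-CoA binding protein, which holds the activated form of fatty acids (chromosome 1: 120113280 to 120121078, minus strand). It had 1233, 1313, 1701 and 1345 normalized reads in Cre libraries, against 1501, 1995, 1559 and 1244 in Loxp libraries. Loxp 2 was highest and Cre 3 next. The log2 difference was -0.16 (SE 0.14, 95% interval -0.46 to 0.14, exact permutation p = 0.371).

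**Figure D2:**
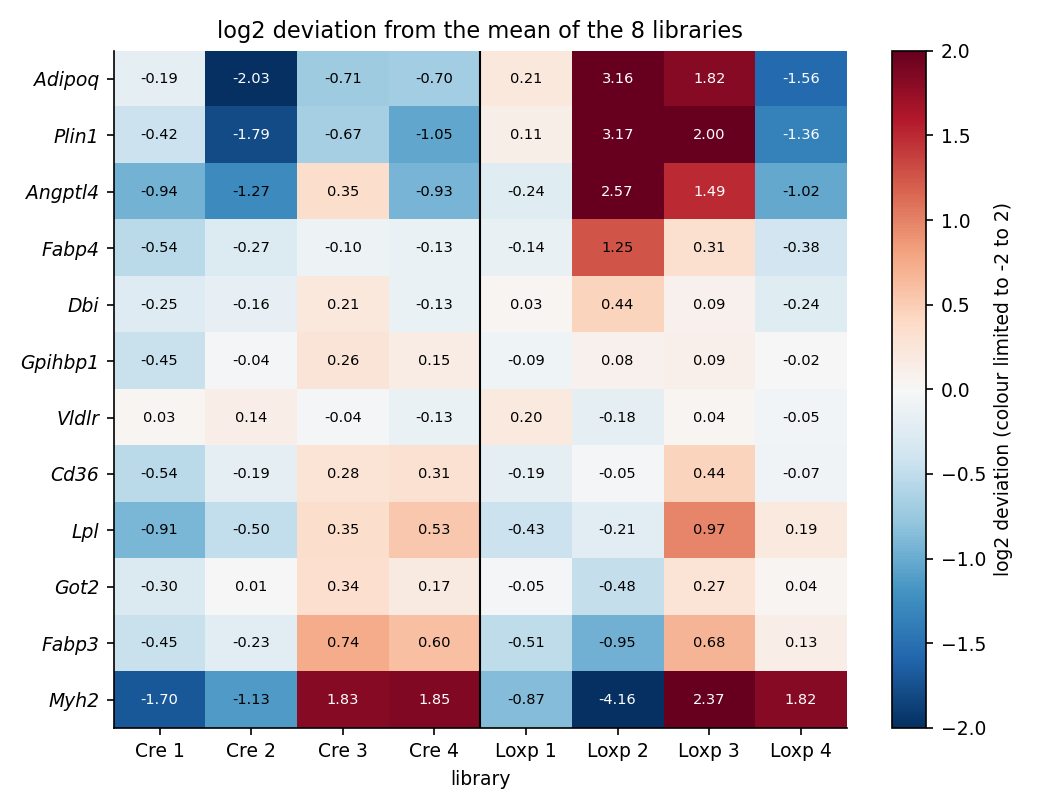
log2 deviation of each gene (rows) from its mean over the 8 libraries (columns, Cre left of Loxp); red is above and blue below the mean, and colour stops at 2 in either direction. Angptl4, Fabp4 and Dbi have their highest value in Loxp 2 (2.57, 1.25 and 0.44), where Fabp3 and Got2 have their lowest (-0.95 and -0.48).

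The genes that follow fat-cell content were sought with a slope on the Adipoq log2 value in a limma model that also held the group. A slope of 1 means that a gene doubles when Adipoq doubles. Angptl4 had a slope of 0.73 (SE 0.13, 95% interval 0.44 to 1.02, adjusted p = 0.0686 by limma), Fabp4 of 0.28 (SE 0.064, interval 0.14 to 0.42, adjusted p = 0.25) and Dbi of 0.12 (SE 0.039, interval 0.028 to 0.20, adjusted p = 0.9999). None of the 9 passed the threshold, against 29 of 13637 genes, or 0.213%, all with slopes above 0. At an unadjusted p under 0.05, Angptl4, Fabp4 and Dbi had slopes above 0, as did 2.23% of all genes. Plin1, which encodes the coat protein of the fat-cell lipid droplet, had a slope of 0.95 (interval 0.82 to 1.07, adjusted p = 4.9e-05). Not every fat-cell marker passed. Of the adipocyte markers listed below, 5 passed by limma, Plin1 among them. Lep (slope 1.07, adjusted p = 0.273), Nrg4 (0.72, 0.9999), Pnpla3 (0.46, 0.163), Lipe (0.40, 0.0637) and Adig (0.28, 0.9999) did not.

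Whether the Angptl4 slope passed depended on the setting and the libraries. It passed with Plin1 in place of Adipoq (0.79, adjusted p = 0.0249), with a pseudocount of 10 (adjusted p = 0.0414), without a group term (adjusted p = 0.00562), without Cre 1 (adjusted p = 0.0294) and without Cre 3 (adjusted p = 0.0374). It did not pass without Loxp 2 (slope 0.64, adjusted p = 0.997) or without Loxp 4 (slope 0.77, adjusted p = 0.594), and without both Loxp 2 and Loxp 3 the slope was 0.39 (adjusted p = 0.9997). Without any other single library the adjusted p was 0.109 to 0.144. The Fabp4 slope passed without a group term (adjusted p = 0.0296) and without Cre 1 (adjusted p = 0.0322). It was 0.14 without Loxp 2 (adjusted p = 0.997) and 0.027 without Loxp 2 and Loxp 3 (adjusted p = 0.9997), so that Loxp 2 set much of its size.

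Over the 8 libraries, Angptl4 and Adipoq had a Pearson r of 0.93 (exact permutation p = 0.00218, adjusted p = 0.448) and a Spearman rho of 0.83 (exact p = 0.0154, adjusted p = 0.936). For Fabp4 the Pearson r was 0.87 (exact permutation p = 0.00724, adjusted p = 0.625) and rho was 0.60 (exact p = 0.132, adjusted p = 0.999). For Dbi, r was 0.77 (exact permutation p = 0.0274, adjusted p = 0.94) and rho 0.55 (exact p = 0.171, adjusted p = 0.999). All adjusted values are over 13637 genes, of which 0 passed and 2.86% had a positive r at an unadjusted p under 0.05. These relations rest on Loxp 2 and Loxp 3, the libraries farthest from the Adipoq median. Without them r was 0.53 for Angptl4 (exact permutation p = 0.247), 0.13 for Fabp4 (p = 0.819) and 0.33 for Dbi (p = 0.528). Plin1 kept an r of 0.97 (exact permutation p = 0.00556, n = 6 each), but no other fat-cell marker is given in this setting. The slope on Adipoq passed for 29 genes with all 8 libraries and for 1 without these 2.

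The level of Fabp4 spanned 3.46-fold from the lowest to the highest library, and that of Adipoq 37.4-fold. Fabp4 stood at 10.6, 46.1, 20.5 and 19.9 reads per read of Adipoq in Cre libraries, against 10.5, 3.55, 4.68 and 30.6 in Loxp libraries. Since Adipoq varied far more, this ratio mostly mirrors Adipoq. Angptl4 had 0.129, 0.368, 0.466 and 0.185 reads per read of Adipoq in Cre libraries, against 0.161, 0.149, 0.178 and 0.317 in Loxp libraries.

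The other 6 genes had slopes on Adipoq whose intervals included 0: 0.04 for Cd36, 0.02 for Lpl, -0.09 for Fabp3, 0.01 for Gpihbp1, -0.04 for Vldlr and -0.07 for Got2. Their Pearson r with Adipoq ran from -0.42 for Got2 to 0.20 for Cd36 (exact permutation p = 0.296 and 0.621, adjusted p = 0.996 each). The highest upper interval limit among the 6 was 0.31, for Lpl. Gpihbp1, a capillary gene, had an r of 0.53 with the mean of 12 endothelial markers (exact permutation p = 0.18, adjusted p = 1) and a rho of 0.19 (exact p = 0.665, adjusted p = 0.987). Without Cre 1 and Loxp 3, the libraries farthest from the median of that mean, its r was -0.24 (exact permutation p = 0.617). None of the 9 had an r with this mean at an unadjusted exact p under 0.05, against 2.49% of all genes with a positive one.

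A list of fat-cell markers, which includes Adipoq, is given beside these genes. Of 12 adipocyte markers, 11 were tested and all 11 had a log2 difference below 0, against 48.3% of all tested genes. The median of the 11, at -1.82, was the value of Adipoq itself. By limma, 0 were past the adjusted threshold. An unadjusted p under 0.05 was seen for 6, Adipoq among them, against 2.91% of all genes. Their mean log2 deviation was 2.79 in Loxp 2 and 1.66 in Loxp 3, and -1.41 to 0.096 in the other libraries. The 11 thus varied together and do not count as 11 separate observations. The summed level of the 12 was 734 to 1514 normalized reads in Cre libraries and 965 to 16364 in Loxp libraries, with no marker at 0 throughout. With Adipoq and Myh2 in the model, the log2 difference was -0.02 for Angptl4 and -0.04 for Fabp4. The part of fat cells in the levels of these genes was not tested.

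**Figure D3:**
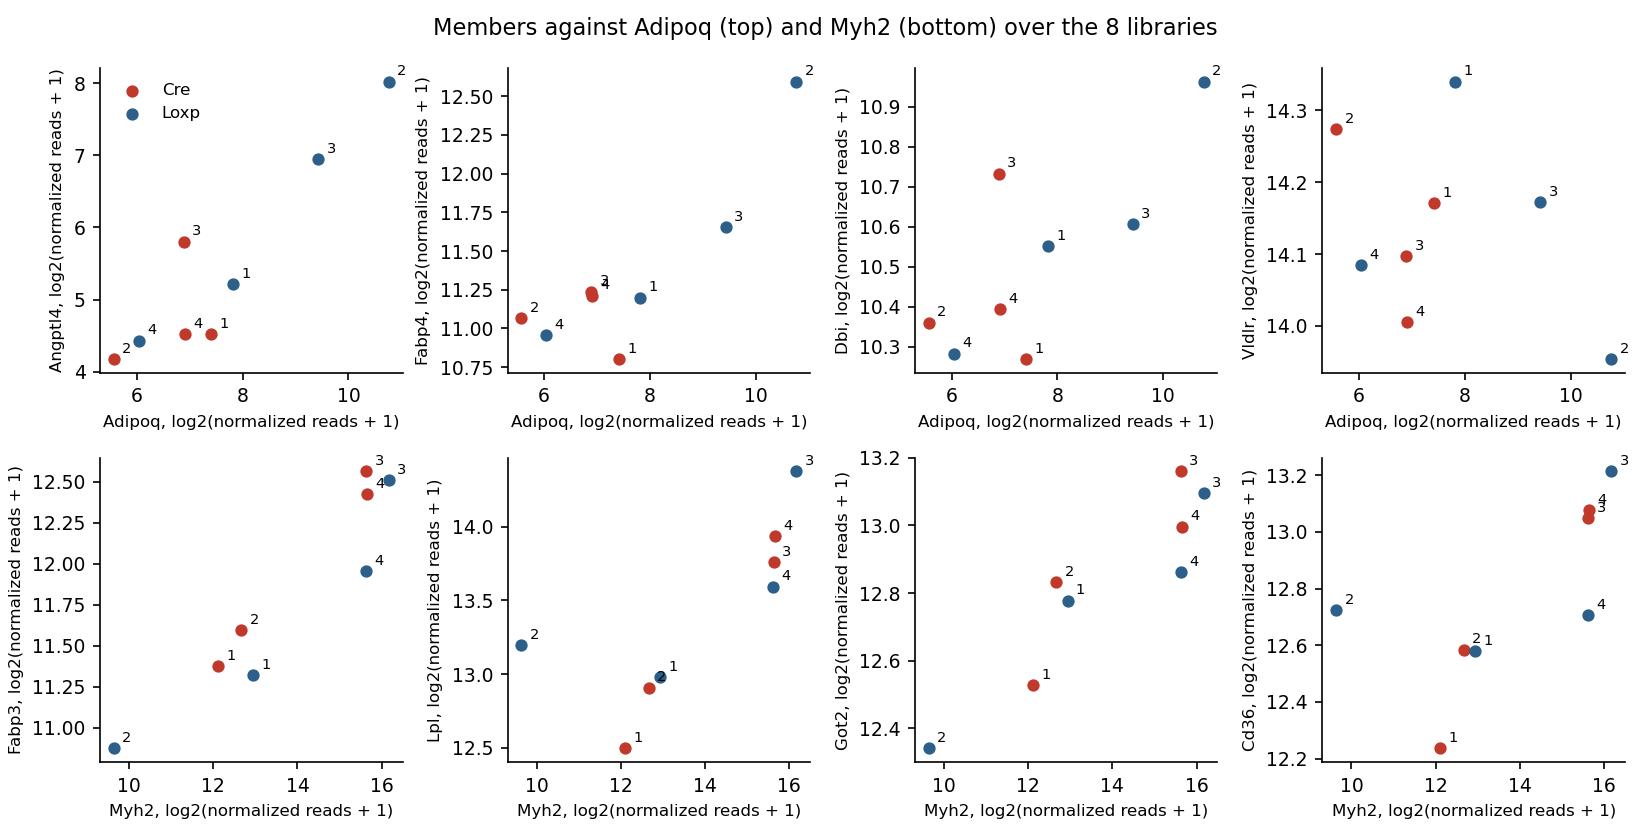
Each point is 1 library (Cre red, Loxp blue, replicate number beside it), with log2(normalized reads + 1) of Adipoq or Myh2 on the x axis and of 1 gene on the y axis. Loxp 2 and Loxp 3 set the upper end of the Angptl4 and Fabp4 panels, and Fabp3 and Got2 have their lowest value where Myh2 is lowest, in Loxp 2.

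A second measure, Myh2, had been named beforehand for correlations, but the models that hold it were added after the data had been seen. Levels of Myh2 fall into separate clusters of libraries. The pooled correlations planned for it and for Myh7 are therefore not given, and the slopes below rest on few distinct levels. In a limma model with group and Myh2, Fabp3 had a slope of 0.25 (SE 0.025, 95% interval 0.20 to 0.31, adjusted p = 0.000251) and Got2 of 0.11 (SE 0.017, interval 0.073 to 0.15, adjusted p = 0.00674). These 2 of the 9 passed, against 1.35% of all genes in the same direction. Lpl had a slope of 0.21 (adjusted p = 0.0581) and Cd36 of 0.09 (adjusted p = 0.213). Fabp3 passed whichever single library was left out (adjusted p 0.000208 to 0.00193), whereas Got2 did not pass without Loxp 2 (adjusted p = 0.105) or without Loxp 3 (adjusted p = 0.0606).

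With group, Adipoq and Myh2 in 1 model, 4 of the 9 passed for Myh2, against 1.31% of all genes in the same direction. The slopes were 0.28 for Fabp3 (SE 0.019, adjusted p = 1.99e-05), 0.27 for Lpl (SE 0.036, adjusted p = 0.0039), 0.11 for Got2 (SE 0.019, adjusted p = 0.0157) and 0.13 for Cd36 (SE 0.027, adjusted p = 0.0401). Lpl and Cd36 were low in Cre 1, Cre 2 and Loxp 1, but in Loxp 2, where Myh2 was lowest and Adipoq highest, they were higher than in those 3 libraries. For Cd36, Loxp 2 (6768 normalized reads) also lay above Loxp 4 (6679), a library high in Myh2. In the model with Myh2 and no Adipoq term, Lpl and Cd36 passed once Loxp 2 was left out (slopes 0.36 and 0.19, adjusted p = 0.000756 and 0.0182). For Adipoq in the joint model none of the 9 passed, against 0.279% of all genes, and the slopes were 0.77 for Angptl4 (adjusted p = 0.0738) and 0.26 for Fabp4 (adjusted p = 0.369). Adipoq slopes at an unadjusted p under 0.05 and above 0 were seen there for 6 of the 9, against 2.87% of all genes. They were those of Angptl4, Fabp4, Dbi, Cd36, Lpl and Fabp3 (the last 3 at 0.13, 0.22 and 0.11). Without Myh2 in the model, the Adipoq slopes of Cd36, Lpl and Fabp3 were 0.04, 0.02 and -0.09, with intervals that included 0. Loxp 2 was at an end of both measures, and the joint model was not fitted with any library left out.

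**Figure D4:**
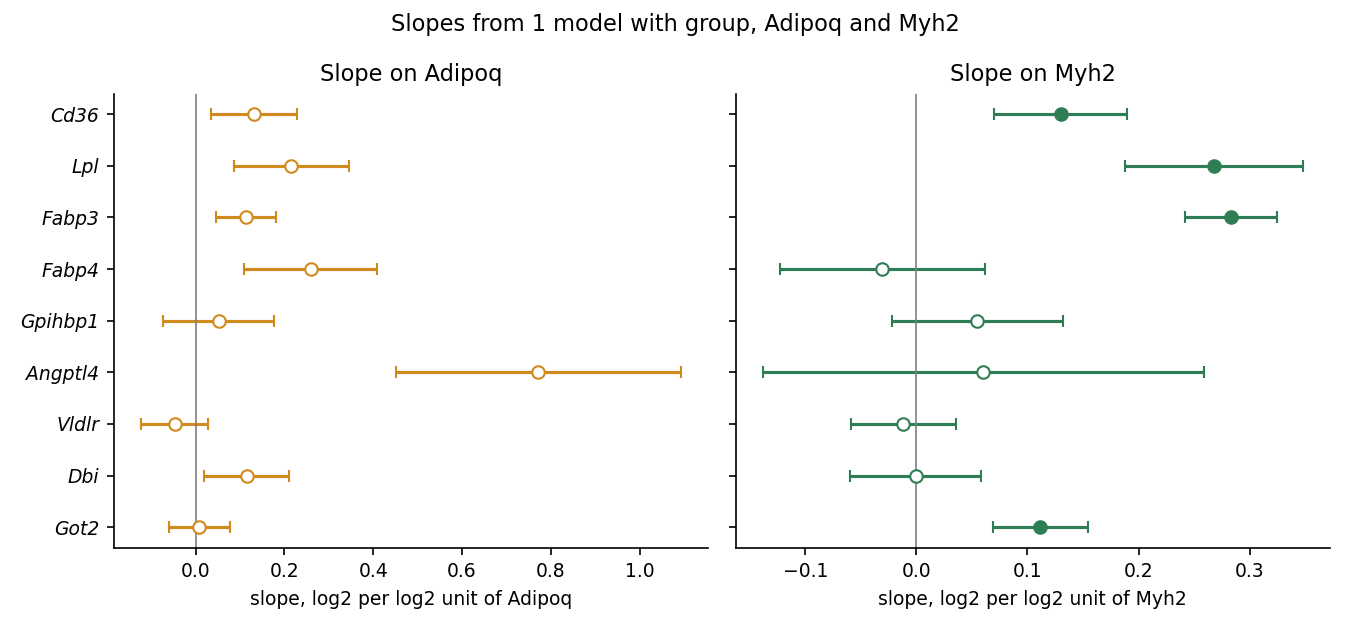
Slope of each gene (rows) on Adipoq (left) and Myh2 (right) from 1 limma model with group, Adipoq and Myh2; bars are 95% intervals and filled points have an adjusted p under 0.05. Filled points are Cd36, Lpl, Fabp3 and Got2 for Myh2, and Angptl4 has the largest Adipoq slope, at 0.77.

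Markers of slow fibres also differed between libraries. Of 8 such markers, all tested, 7 had a log2 difference above 0, with a median of 1.69, while 48.3% of all tested genes were below 0. By limma, 0 were past the adjusted threshold and 1 was at an unadjusted p under 0.05, against 2.91% of all genes. Their mean log2 deviation was -2.18, -0.54, 2.33 and 3.63 in Cre 1 to 4, and -1.58 to 0.20 in Loxp libraries. The median difference thus does not describe every Cre library. The summed level of the 8 markers was 1642 to 17978 normalized reads in Cre libraries and 1740 to 2566 in Loxp libraries. The 2 Cre libraries high in Myh7, Cre 3 and Cre 4, were also the 2 Cre libraries high in Myh2. Leaving them out set Cre 1 and Cre 2, both low in Myh2, against all Loxp libraries. Loxp 3 and Loxp 4, which were high in Myh2, stayed in. The log2 difference was then -0.84 for Lpl, -0.40 for Cd36, -0.26 for Gpihbp1, -0.18 for Fabp3 and -0.09 for Got2. In that setting it was -1.81 for Angptl4, -0.67 for Fabp4, -0.29 for Dbi and 0.08 for Vldlr, and none of the 9 passed (adjusted p = 0.998 for each by limma). The part of fibre make-up in the levels of these genes was not tested.

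**Figure D5:**
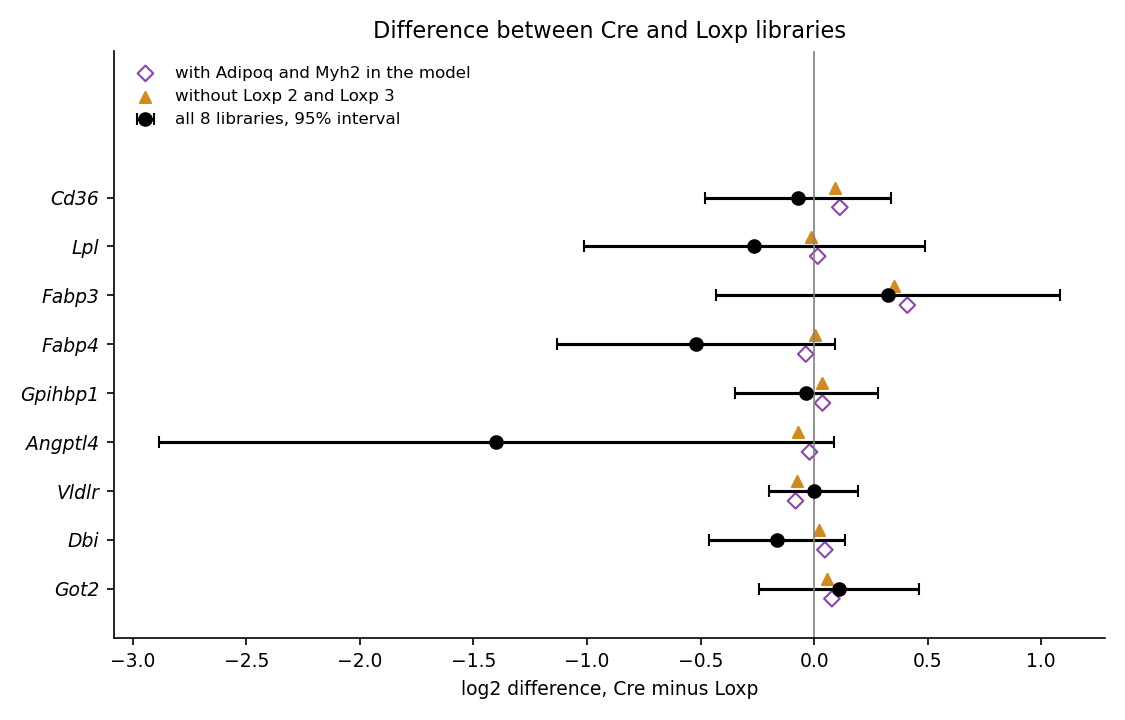
log2 difference, Cre minus Loxp (x axis), of the 9 genes with 95% intervals from all 8 libraries (black), without Loxp 2 and Loxp 3 (triangles) and with Adipoq and Myh2 in the model (diamonds). All black intervals include 0, and the widest is that of Angptl4 (-2.89 to 0.09).

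The genes most like each of the 9 were the 3 with the highest Pearson r over the 8 libraries. They were picked from 9299 genes with a mean of at least 100 normalized reads, predicted genes left out. For Fabp3 they were Idh2, Acaa2 and Coq10a (r 0.997, 0.995 and 0.992), all of which encode mitochondrial proteins. For Got2 they were Mb, which encodes myoglobin, Myot and the cytosolic aminotransferase gene Got1 (0.996, 0.993 and 0.992). Cd36 was closest to Grtp1, Acsl1, which encodes an acyl-CoA synthetase, and Ephx2 (0.970, 0.969 and 0.968). Lpl was closest to Lmod1, Cd36 and Acsl1 (0.980, 0.963 and 0.961). For Fabp4 they were Hsd17b12, the fatty acid synthase gene Fasn and Bscl2, which encodes seipin (0.990, 0.988 and 0.980). For Angptl4 they were Cebpa, a transcription factor gene of fat-cell differentiation, Pfkl and Slc1a3 (0.980, 0.976 and 0.970). Dbi was closest to Taldo1, Zbtb24 and Agpat2 (0.947, 0.943 and 0.934), Gpihbp1 to Arhgdib, Mcur1 and H19 (0.975, 0.959 and 0.955), and Vldlr to Aamp, Per2 and Pde4b (0.970, 0.955 and 0.953). Within the 9, the most alike pairs were Cd36 with Lpl (0.963), Fabp3 with Got2 (0.939), Fabp4 with Angptl4 (0.924) and Angptl4 with Dbi (0.909). Fabp3 and Fabp4 had an r of -0.32. With 8 libraries these values rank genes and carry no test. They pool libraries high and low in Myh2 and in Adipoq, and none was computed within such clusters.

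Other genes of the same steps were read from lists, and none of them passed the test between Cre and Loxp. Of 26 partners of lipoprotein lipase and lipoprotein receptors, 17 were tested, with 0 up and 0 down by limma and a median log2 difference of -0.02 (1 at an unadjusted p under 0.05). Apoe, an apolipoprotein gene, had 1008 ± 201 normalized reads in Cre libraries and 1416 ± 433 in Loxp libraries (SD, n = 4 each; log2 difference -0.46, unadjusted p = 0.0348, adjusted p = 0.9995 by limma). The slope of Apoe on Adipoq was 0.19 (unadjusted p = 0.00121, adjusted p = 0.261 by limma). No gene of the list passed that test, and the median slope was 0.017. Lmf1, which encodes the factor that lipoprotein lipase needs to mature, had 228 ± 22.1 in Cre libraries and 258 ± 15.6 in Loxp libraries (log2 difference -0.18). The abundant genes of the list, Sel1l, Lrp1, Lrp6, Sdc4, Hspg2 and Furin, differed by -0.11 (Hspg2) to 0.02 (Sel1l) on the log2 scale. Apoc2 and Apoa5 were at 0 in every library.

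Of 23 other binding proteins, transport proteins and caveolar genes, 14 were tested, again with 0 up and 0 down and 1 at an unadjusted p under 0.05 (median -0.0043). That 1 was Fabp5, at 116 ± 9.42 normalized reads in Cre libraries and 151 ± 28.4 in Loxp libraries (log2 difference -0.36, adjusted p = 0.9995 by limma). Slc27a1, which encodes the fatty acid transport protein of muscle and fat, had 1474 ± 272 in Cre libraries and 1483 ± 339 in Loxp libraries. The caveolar genes Cav1, Cav2, Cav3, Cavin1, Cavin2 and Cavin4 and the palmitoyltransferase gene Zdhhc5 differed by -0.08 (Cav1) to 0.05 (Zdhhc5), and Ehd2 by -0.16. Fabp2, Fabp6, Fabp9 and Fabp12 were at 0 in every library.

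All 13 genes of endothelial control of fatty acid passage were tested, with 0 called and 0 at an unadjusted p under 0.05 (median -0.02). Pparg, a nuclear receptor gene used by fat cells, had 51.0 ± 9.61 normalized reads in Cre libraries and 117 ± 84.9 in Loxp libraries (log2 difference -0.83, adjusted p = 0.9995 by limma). The slope of Pparg on Adipoq was 0.51 (unadjusted p = 0.000705, adjusted p = 0.181 by limma). No gene of this list passed that test, and the median slope was -0.047. Between the groups, Vegfa, Flt1 and Nrp1 differed by 0.16, -0.16 and 0.03. Of 7 acyl-CoA binding domain genes, 5 were tested and 0 called (0 at an unadjusted p under 0.05, median 0.05). Acbd6 differed by 0.16, Acbd5 by -0.07 and Eci2 by 0.09.

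All 6 shuttle partners of Got2 were tested and 0 were called between the groups (0 at an unadjusted p under 0.05), with all 6 differences above 0 and a median of 0.15. Slc25a11, the oxoglutarate carrier gene, differed by 0.15, Slc25a12 by 0.11 and Mdh2 by 0.07. Got1 differed by 0.17 and Mdh1 by 0.15. On Myh2, 2 of the 6 passed, Got1 (slope 0.17) and Mdh1 (slope 0.14), against 1.35% of all genes in the same direction and beside the Got2 slope of 0.11. The summed level of the 6 was 43682 to 63383 normalized reads in Cre libraries and 39008 to 57684 in Loxp libraries.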

How the data were processed

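Total RNA from white quadriceps was made into stranded libraries, per the labels' protocols. Per the submitters' processing notes, the tools were FastQC, cutadapt, STAR, HTSeq and DESeq2 and the build GRCm38; their order, versions and annotation are not given in the sources used here. Values deposited by the authors are log2 values of x + 1, as the numbers themselves show, where x is the reads of a gene over a factor set for each library. Below 1000 reads, 100% of values lay within 0.1 of a whole multiple of what 1 read is worth (0.708 to 1.22 in x). One unit of x is called a normalized read, and differences are of the log2 values, whose pseudocount of 1 understates changes of low genes. Whole reads were recovered by this division, and limma-voom was run on them as an alternative.

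The groups were fitted in limma 3.58.1 (R 4.3.3, trend on the mean, all 8 libraries), with Benjamini-Hochberg adjustment over 13638 genes and a threshold of 0.05. Slopes on Adipoq and Myh2 came from the same tool with the group in the model. Exact permutation tests, two-sided, used the 70 relabellings of the libraries or the 40320 pairings of 8 values. The steps were tested on simulated data. Each library carries its own mouse number, and the labels give no litter, batch or day, so p-values measure the spread between these libraries. Coordinates are from GENCODE M21 on GRCm38, matched by gene symbol. The measures of likeness left out predicted genes (Gm and Rik names). In each list the genes that passed, or else the 2 with the smallest p, and those with a mean above 1000 normalized reads are named. Levels per kilobase were to use the longest annotated transcript; the protein-coding one was chosen after its Fabp4 model was seen. The 9 genes, the lists and the measures were chosen with earlier results of these data known.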

Additional observations from a re-analysis of the deposited data

How the results depend on the processing

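None of the 9 genes was called between Cre and Loxp under any of the alternatives run. The count of all genes called was 2 in each of them except with Adipoq and Myh2 as covariates, where it was 19. Depth limits Angptl4, with 14 reads in its lowest library; it had too low a mean to be kept at 100 normalized reads.

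The slope on Adipoq passed for 29 of 13637 genes, or 0.213%. It passed for 66 without a group term, 16 with a mean of at least 100, 1 without Loxp 2 and Loxp 3, and 7 to 39 when each library was left out. Of the 9 genes, 2 passed without a group term, against 66 of 13637 genes. With Plin1 it was 1 of the 9, against 34 of all genes. With a pseudocount of 10 it was 1 of the 9, against 43. Without 1 library it was 0 to 2 of the 9, against 7 to 39. The slope on Myh2 was added after seeing the data. It passed for 71 to 277 of 13637 genes and 1 to 3 of the 9 when each library was left out. With Adipoq in the model it passed for 4 of the 9, against 1.31% of all genes in the same direction. The cause of these shifts was not tested.

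No log2 difference between groups whose sign turned was ever past the threshold. With Adipoq and Myh2 as covariates the difference was 0.11 for Cd36, 0.016 for Lpl, 0.037 for Gpihbp1 and 0.048 for Dbi. With Adipoq alone it was 0.048 for Dbi and -0.019 for Got2. Without Loxp 2 and Loxp 3 it was 0.094 for Cd36, 0.0025 for Fabp4, 0.037 for Gpihbp1 and 0.022 for Dbi. Without Cre 3 and Cre 4 it was -0.18 for Fabp3, 0.085 for Vldlr and -0.089 for Got2. That alternative, which kept only Cre libraries low in Myh2, was chosen after seeing the data, as were the Myh2 covariates. Vldlr was at 0.014 with scaling to total reads, 0.0014 with limma-voom and 0.0027 with library weights. Leaving out each library gave 0.060 to 0.61 for Fabp3, -0.74 to -0.19 for Fabp4, -1.97 to -0.78 for Angptl4, -0.27 to -0.041 for Dbi, -0.18 to 0.098 for Cd36, -0.48 to 0.017 for Lpl, -0.13 to 0.11 for Gpihbp1, -0.062 to 0.067 for Vldlr and -0.033 to 0.23 for Got2.

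For the slope on Adipoq, the values without Loxp 2 and Loxp 3 were -0.048 for Cd36, -0.13 for Lpl, -0.076 for Gpihbp1 and 0.018 for Vldlr, and with Myh2 in the model 0.11 for Fabp3 and 0.0087 for Got2. Without 1 library they were -0.052 to 0.18 for Lpl, -0.17 to 0.14 for Fabp3, -0.0018 to 0.043 for Gpihbp1 and -0.11 to 0.035 for Got2. For the slope on Myh2, Adipoq in the model gave 0.060 for Angptl4 and -0.012 for Vldlr. Without 1 library the slopes were -0.14 to 0.085 for Fabp4, -0.29 to 0.25 for Angptl4, -0.055 to 0.0098 for Vldlr and -0.054 to 0.042 for Dbi. The correlation with Adipoq without Loxp 2 and Loxp 3 was -0.15 for Cd36, -0.19 for Lpl, -0.27 for Gpihbp1 and 0.16 for Vldlr. Without 1 library it was -0.044 to 0.36 for Cd36, -0.14 to 0.41 for Lpl, -0.62 to 0.24 for Fabp3, -0.50 to 0.12 for Vldlr and -0.71 to 0.20 for Got2.

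Mice with adjacent numbers, 1 Cre and 1 Loxp each, were taken as a replicate block in 1 alternative. It left 2 genes called and 0 of the 9. The correlation of deviations was -0.08, 0.15, 0.19 and -0.08 over the 4 pairs, and 2 of the 4 pairs correlated best within the pair. With only 4 pairs this check cannot decide whether the mice were paired.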
